A study of Mus musculus with 8 samples.

Results

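The genes of peroxisome assembly and of peroxisomal lipid metabolism were compared between hearts of 6-week-old male C57BL/6 mice that lack HDAC3 (KO, 4 mice) and hearts of wild type males of the same age and strain (WT, 4 mice). HDAC3 is a histone deacetylase that acts with nuclear receptor corepressors. The submitters call the knockout line MCH3-KO, and the promoter or cell type in which the gene was removed is not stated in the labels. All 8 mice ate normal chow under a 24-hour light and dark cycle, and each whole heart was read on its own Affymetrix Mouse Gene 1.0 ST array, whose probes are summed into transcript clusters. The genes were chosen by name and function, as every annotated symbol made of Pex and a number (14 genes) and 21 listed enzymes, transporters and membrane proteins, 35 of 19933 genes with a cluster of their own. Of these 35 genes 34 were bright enough to be tested, and each was read by 1 cluster. Acaa1b, 1 of a pair of closely similar thiolase genes, was dimmer than the filter at the 25th percentile of all genes.

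Peroxisomes are small organelles bounded by a single membrane. They shorten very long and branched fatty acids that mitochondria do not take directly, pass the shortened chains on as carnitine esters, start the synthesis of ether lipids (plasmalogens, abundant in heart membranes) and destroy hydrogen peroxide with catalase. Their matrix proteins are made in the cytosol and imported whole by the peroxins, the products of the Pex genes. In liver, many of the oxidation genes are known targets of the nuclear receptor PPAR alpha.

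Of the 34 genes tested, 14 fell in KO hearts and 1 rose. The membrane proteins Pxmp2 and Pxmp4, the beta-oxidation genes Scp2, Amacr, Ehhadh, Acox3 and Decr2, and the carnitine acyltransferase genes Crot and Crat were lower, as were Phyh of alpha-oxidation and the peroxin genes Pex5, Pex16, Pex19 and Pex26. Catalase (Cat) was the gene that rose. The changes were small apart from Pxmp2 and Scp2, the members of the 34 that differed at least 1.5-fold. The other 19 did not pass. Of these, Gnpat, Pex5l, Abcd2 and Acaa1a lay near 0, while Abcd3, Pex10 and Far1 missed narrowly, with KO and WT values apart.

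A gene was called where limma's adjusted p (Benjamini-Hochberg over all 14950 genes tested) was under 0.05. The background was broad: 13.9% of all genes tested were called lower and 10.8% higher. Among the 34 peroxisome genes 41.2% were called lower and 2.94% higher. KO and WT arrays did not overlap, with KO lower, for 15 of the 34 genes and for 16.8% of all genes tested, and with KO higher for 2 and for 11.7%. The median difference was -0.15 on the log2 scale for the 34 genes (from -0.80 to 0.25), beside -0.01 for all genes tested, and 26 of the 34 differences were below 0, beside 51.8% of all genes. Calls are more frequent among bright genes. With all genes ranked by level into 4 sets of equal size, 22.7% of the brightest set were called lower, beside 7 of its 14 peroxisome genes. The next set had 19.0%, beside 3 of 12, the third 11.0%, beside 4 of 7, and the dimmest 2.78%, beside 0 of 1. The list was assembled with earlier results of these data known, so these shares describe it and test nothing.

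Values below are log2 intensities, given in the order of replicates 1 to 4, and differences are KO minus WT with limma's SE. The array medians were close, from 54.1 to 56.5 in intensity. Hdac3 itself lay between 8.50 and 8.59 in KO hearts and between 10.04 and 10.20 in WT hearts, so each array went with its label. Heart identity was plain in both groups, where cardiomyocyte genes such as Actc1 (13.46 in KO, 13.50 in WT) were bright. In RNA from whole hearts, fewer cells of a type and less RNA per cell cannot be told apart.

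**Figure D1:**
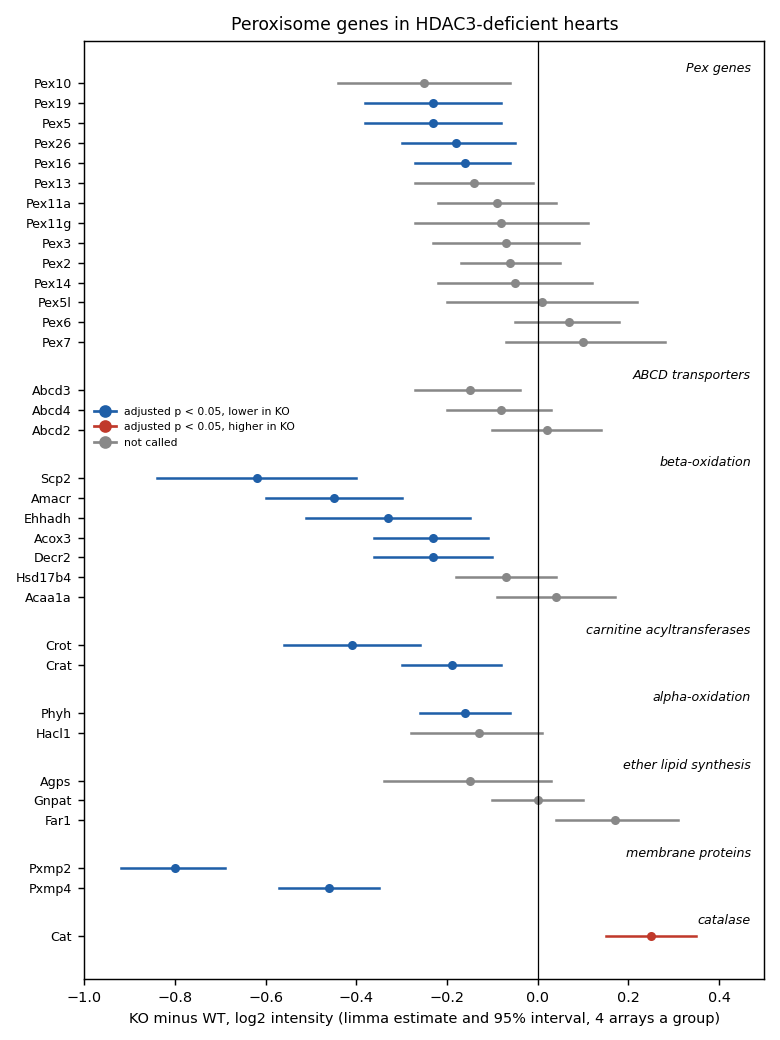
Difference between KO and WT hearts on the log2 intensity scale (horizontal axis) for the 34 peroxisome genes tested, grouped by role, with points for the limma estimate and lines for its 95% interval (4 arrays a group). The 14 genes called lower are blue, Cat is the red gene called higher, and Pxmp2 at -0.80 lies farthest from 0.

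The peroxisomal membrane proteins held the largest difference. Pxmp2, known in mice as a channel that lets small metabolites cross the peroxisomal membrane, read 6.02, 6.09, 6.18 and 6.06 in KO hearts, against 6.90, 6.83, 6.92 and 6.93 in WT hearts. Every KO heart lay well below every WT heart, and the gap was many times the spread within either group. The difference was -0.80 (SE 0.05, 95% interval -0.92 to -0.69, limma adjusted p = 4.79e-06), which put KO hearts at 57.3% of the WT level. Pxmp4, an integral membrane protein of peroxisomes whose function is less settled, read 8.97, 9.04, 8.89 and 8.93 in KO hearts, against 9.44, 9.41, 9.45 and 9.38 in WT hearts. The groups were again apart, with a difference of -0.46 (SE 0.05, limma adjusted p = 0.000114). Neither gene lost its call under any of the 17 alternatives run. The promoter of Pxmp4 (250 bases before to 50 after the start, chr2:154603624-154603923, minus strand, GRCm38.p6, from RefSeq) is shown because its fall had the smallest p among the genes with an entry there. Capitals mark CCAAT in either orientation, and it holds 3 of them.
Pxmp4: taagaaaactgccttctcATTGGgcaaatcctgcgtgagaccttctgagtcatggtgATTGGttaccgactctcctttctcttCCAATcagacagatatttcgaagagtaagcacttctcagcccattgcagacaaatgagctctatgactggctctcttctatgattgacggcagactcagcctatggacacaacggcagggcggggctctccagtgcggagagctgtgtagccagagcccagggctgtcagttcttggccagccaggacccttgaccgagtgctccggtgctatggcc

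The ABCD transporters bring acyl-CoA across the membrane. Abcd3, an abundant protein of the peroxisomal membrane and a carrier of branched and dicarboxylic acyl-CoA, read 9.03, 9.03, 9.05 and 8.94 in KO hearts, against 9.24, 9.18, 9.10 and 9.14 in WT hearts. All KO values were below all WT values, by a little. The difference of -0.15 (SE 0.05) narrowly missed the threshold (limma adjusted p = 0.0517, range 0.0247 to 0.132 over the alternatives) and passed in 5 of them, among them quantile normalisation (adjusted p = 0.038). Abcd2, a carrier of very long chains, differed by 0.02 (95% interval -0.10 to 0.14) and its sign changed between alternatives. Abcd4, related in sequence but known for cobalamin transport in lysosomes, differed by -0.08 (95% interval -0.20 to 0.03). Both of these had overlapping groups.

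In peroxisomal beta-oxidation 5 of 7 genes tested fell and 0 rose, beside 13.9% and 10.8% of all genes tested. The gene with the largest fall was Scp2, which encodes both a thiolase for branched chains and the sterol carrier protein 2. It read 7.51, 7.56, 7.61 and 7.10 in KO hearts, against 8.10, 8.08, 8.05 and 8.04 in WT hearts. The WT hearts had an SD of 0.03, while KO replicate 4 lay clearly under the other KO hearts. The difference was -0.62 (SE 0.10, limma adjusted p = 0.00127), or 65.0% of the WT level. Without KO replicate 4 it was -0.51, and the call held. The cluster does not separate the long and short transcripts of Scp2.

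Amacr, the racemase that turns branched acyl-CoA into the form that oxidation accepts, read 7.86, 8.03, 7.93 and 7.75 in KO hearts, against 8.37, 8.39, 8.36 and 8.24 in WT hearts. No arrays overlapped, and the difference was -0.45 (SE 0.07, limma adjusted p = 0.000841). Ehhadh, the bifunctional enzyme that hydrates and dehydrogenates straight chains, read 6.53, 6.43, 6.60 and 6.68 in KO hearts, against 6.93, 7.07, 6.76 and 6.78 in WT hearts. Its groups came close, at 6.68 in the highest KO heart and 6.76 in the lowest WT heart, with a difference of -0.33 (SE 0.08, limma adjusted p = 0.0129). Acox3, an oxidase that takes branched acyl-CoA in rodents, averaged 7.48 ± 0.04 in KO hearts and 7.71 ± 0.09 in WT hearts (SD, n = 4 each), a difference of -0.23. Decr2, a reductase needed for unsaturated chains, averaged 7.73 ± 0.07 in KO hearts and 7.96 ± 0.08 in WT hearts (SD, n = 4 each), also -0.23. Neither gene overlapped between the groups, and both kept their calls under every alternative run, with adjusted p-values up to 0.0431 for Acox3 and 0.0472 for Decr2 (limma).

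The remaining beta-oxidation genes did not pass. Hsd17b4, the bifunctional enzyme for branched chains and bile acid precursors, read 8.79, 8.90, 8.94 and 8.93 in KO hearts, against 8.96, 8.94, 8.97 and 8.96 in WT hearts. KO replicate 1 was the lowest, and the highest KO heart came level with the lowest WT heart. The difference was -0.07 (95% interval -0.18 to 0.04). Acaa1a, a thiolase of the last step, differed by 0.04 (95% interval -0.09 to 0.17). Its near copy Acaa1b lay between 3.97 and 4.34 in KO hearts and between 3.85 and 4.20 in WT hearts, under the filter at 4.50. Hybridisation shared by these copies was not tested.

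The promoters of Scp2 (chr4:108118498-108118797, minus strand) and Ehhadh (chr16:21787785-21788084, minus strand, both GRCm38.p6, from RefSeq) are shown as those of the beta-oxidation genes with the largest falls among those with an entry. Capitals mark AGGTCA (the core site that nuclear receptors such as PPAR alpha bind), TGACNNNGC (the antioxidant response element) and CCAAT, on either strand.
Scp2: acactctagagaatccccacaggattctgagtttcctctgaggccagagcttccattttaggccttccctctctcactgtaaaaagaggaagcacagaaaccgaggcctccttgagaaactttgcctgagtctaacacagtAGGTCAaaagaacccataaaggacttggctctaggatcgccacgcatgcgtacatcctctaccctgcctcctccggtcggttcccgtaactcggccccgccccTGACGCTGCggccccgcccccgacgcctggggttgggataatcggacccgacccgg
Ehhadh: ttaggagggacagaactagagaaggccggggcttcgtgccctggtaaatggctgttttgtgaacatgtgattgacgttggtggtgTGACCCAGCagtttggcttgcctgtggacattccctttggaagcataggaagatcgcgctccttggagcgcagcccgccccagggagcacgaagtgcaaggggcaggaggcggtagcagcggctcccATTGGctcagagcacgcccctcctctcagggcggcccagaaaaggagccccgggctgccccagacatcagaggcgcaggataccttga

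**Figure D2:**
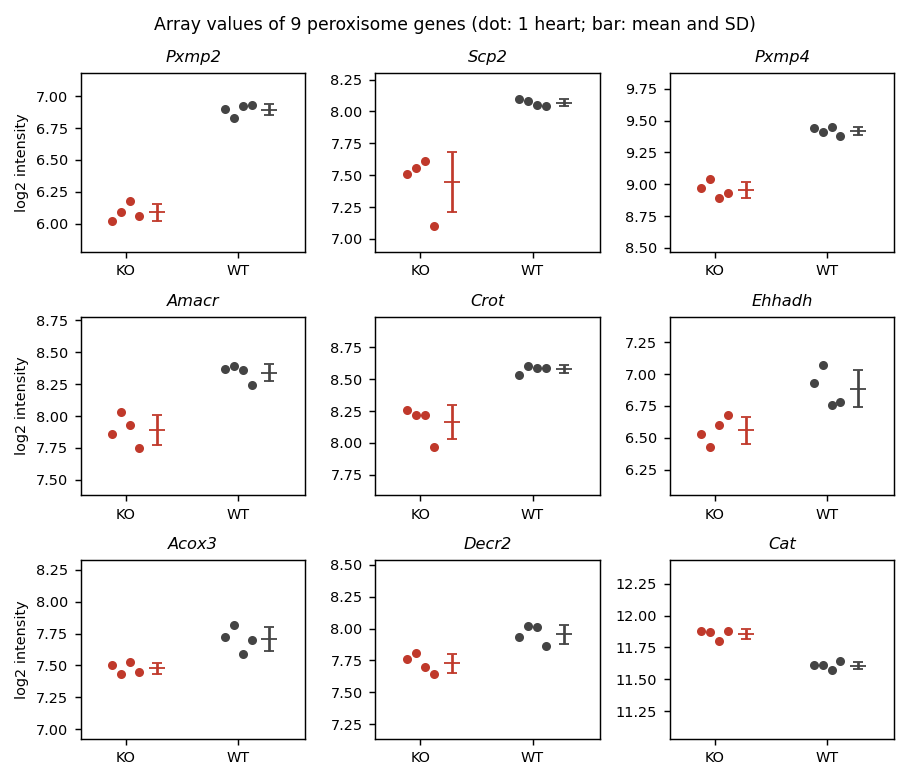
Log2 intensity (vertical axes, each spanning the same range) in 4 KO and 4 WT hearts for the 8 genes called lower under every alternative and for Cat, with 1 dot a heart and a bar for the mean and SD. The groups are apart in all 9 panels, which follows largely from choosing the genes by their calls. KO replicate 4 lies under the other KO hearts for Scp2 (7.10) and Crot (7.97).

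Shortened chains leave peroxisomes as carnitine esters, and both acyltransferase genes fell. Crot, which takes medium chains, read 8.26, 8.22, 8.22 and 7.97 in KO hearts, against 8.53, 8.60, 8.59 and 8.59 in WT hearts. KO replicate 4 was again the lowest, and even the highest KO heart was under every WT heart. The difference was -0.41 (SE 0.07, limma adjusted p = 0.00134), or 75.1% of the WT level. Crat, which takes acetyl groups in mitochondria and in peroxisomes, read 11.70, 11.75, 11.70 and 11.78 in KO hearts, against 11.98, 11.96, 11.86 and 11.91 in WT hearts. The difference was smaller, -0.19 (SE 0.05, limma adjusted p = 0.016), without overlap. Without KO replicate 1 it missed the threshold (-0.18, adjusted p = 0.0553, range 0.00131 to 0.0553 over the alternatives).

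In alpha-oxidation, which removes a carbon from phytanic acid, Phyh read 11.31, 11.25, 11.32 and 11.33 in KO hearts, against 11.47, 11.45, 11.48 and 11.45 in WT hearts. Phyh is the hydroxylase of the first step. Arrays of each group were tightly placed and did not overlap, so that a difference of -0.16 (SE 0.04) passed (limma adjusted p = 0.0232). Over the alternatives the adjusted p ran from 0.00175 to 0.0739. It missed the threshold in 5 alternatives: without KO replicate 1 (0.0616), KO replicate 2 (0.0739), WT replicate 1 (0.0552) or WT replicate 3 (0.0587), and with the replicate number as a block (0.0579). Hacl1, the lyase of the same pathway, differed by -0.13 (95% interval -0.28 to 0.01) with overlapping groups.

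None of the 3 genes of ether lipid synthesis passed with limma, and 1 of them, Far1, had an unadjusted p under 0.05 (0.0159). Gnpat, the acyltransferase of the first step, read 10.08, 10.01, 10.05 and 10.01 in KO hearts, against 10.04, 10.06, 10.01 and 10.04 in WT hearts. These values interleave, and the 95% interval of the difference, -0.10 to 0.10, bounds it on both sides. Agps, the synthase that makes the ether bond, read 6.84, 6.87, 6.81 and 6.60 in KO hearts, against 6.82, 7.14, 6.88 and 6.89 in WT hearts, a difference of -0.15 (95% interval -0.34 to 0.03). It was -0.08 without WT replicate 2, -0.09 without KO replicate 4 and -0.07 with array weights. Far1, the reductase that supplies the fatty alcohol, read 7.52, 7.63, 7.69 and 7.47 in KO hearts, against 7.45, 7.45, 7.33 and 7.39 in WT hearts. Its KO hearts were all higher, by a margin of 0.17 in the mean (SE 0.06), with a limma adjusted p of 0.0598. The range over the alternatives was 0.023 to 0.146 and 6 of the 17 passed, among them quantile normalisation (0.20, adjusted p = 0.023) and leaving out KO replicate 4 (0.21, adjusted p = 0.031).

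Catalase, which breaks down the hydrogen peroxide that the oxidases make, moved the other way. It read 11.88, 11.87, 11.80 and 11.88 in KO hearts, against 11.61, 11.61, 11.57 and 11.64 in WT hearts. All KO hearts were above all WT hearts. The difference was 0.25 (SE 0.04, limma adjusted p = 0.00259), 1.19-fold, and it passed in every alternative run. In the same hearts all 16 measured macrophage markers rose (median 1.30), and their part in the rise of Cat was not tested. The promoter of Cat (chr2:103485104-103485403, minus strand, GRCm38.p6, from RefSeq) is shown as that of the gene that rose. Capitals mark the same motifs as above, and it holds 4 CCAAT boxes and 1 AGGTCA.
Cat: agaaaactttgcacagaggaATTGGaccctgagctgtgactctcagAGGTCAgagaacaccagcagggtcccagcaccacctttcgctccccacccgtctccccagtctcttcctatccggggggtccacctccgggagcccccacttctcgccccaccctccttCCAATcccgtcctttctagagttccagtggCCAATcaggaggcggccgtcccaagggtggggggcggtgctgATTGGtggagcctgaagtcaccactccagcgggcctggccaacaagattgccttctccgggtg

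In the Pex genes 4 of 14 fell (28.6%) and 0 rose, beside 13.9% and 10.8% of all genes tested, with a median difference of -0.09 on the log2 scale and a range from -0.25 to 0.10. No Pex gene differed by as much as 1.2-fold. Pex5, the import receptor for proteins with a C-terminal signal, read 6.53, 6.56, 6.48 and 6.32 in KO hearts, against 6.77, 6.73, 6.57 and 6.74 in WT hearts. The groups were close at 6.56 in a KO heart and 6.57 in a WT heart, and the difference was -0.23 (SE 0.07, limma adjusted p = 0.0295). Pex7, the receptor for proteins with an N-terminal signal, differed by 0.10 (95% interval -0.07 to 0.28) and overlapped. It was 0.03 without KO replicate 3 and 0.16 without KO replicate 4. Whether the receptors differ from each other was not tested.

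Pex19, the cytosolic chaperone of peroxisomal membrane proteins, read 9.46, 9.56, 9.46 and 9.28 in KO hearts, against 9.78, 9.66, 9.64 and 9.60 in WT hearts, a difference of -0.23 (SE 0.07, limma adjusted p = 0.0306). Pex16, which brings membrane proteins to new peroxisomes, read 8.33, 8.36, 8.30 and 8.26 in KO hearts, against 8.50, 8.51, 8.49 and 8.41 in WT hearts, a difference of -0.16 (SE 0.05, limma adjusted p = 0.0286). Both genes had lower values in every KO heart than in any WT heart. Pex3, the membrane anchor for Pex19, had a difference of -0.07 (95% interval -0.23 to 0.09) and overlapping groups.

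Pex26, which holds the receptor-recycling ATPases at the membrane, read 5.79, 5.67, 5.64 and 5.59 in KO hearts, against 5.88, 5.85, 5.88 and 5.79 in WT hearts. Its highest KO heart reached the lowest WT heart. The difference was -0.18 (SE 0.06, limma adjusted p = 0.0412). The call was lost in 11 of the 16 alternatives that tested it, whose adjusted p ran from 0.0239 to 0.106. Pex6, an ATPase of that complex, differed by 0.07 (95% interval -0.05 to 0.18). Leaving out single arrays, a test with fewer samples, ended the call of Pex16 and of Pex19 in 6 of 8 cases each and that of Pex5 in 5 of 8.

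The other peroxins did not pass. Pex10, a ubiquitin ligase that acts on the import receptor, read 8.08, 8.13, 8.08 and 7.74 in KO hearts, against 8.16, 8.23, 8.30 and 8.33 in WT hearts. No arrays overlapped, but KO replicate 4 lay far under the rest, and the difference of -0.25 (SE 0.09) had a limma adjusted p of 0.0593 (range 0.0362 to 0.131). Without KO replicate 4 it was -0.16. Pex2, of the same ligase, differed by -0.06, and the docking genes Pex13 and Pex14 by -0.14 and -0.05. Pex11a and Pex11g, which act in growth and division, differed by -0.09 and -0.08. Pex5l, a relative of Pex5 known in the brain as a subunit of pacemaker channels, differed by 0.01 (95% interval -0.20 to 0.22).

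**Figure D3:**
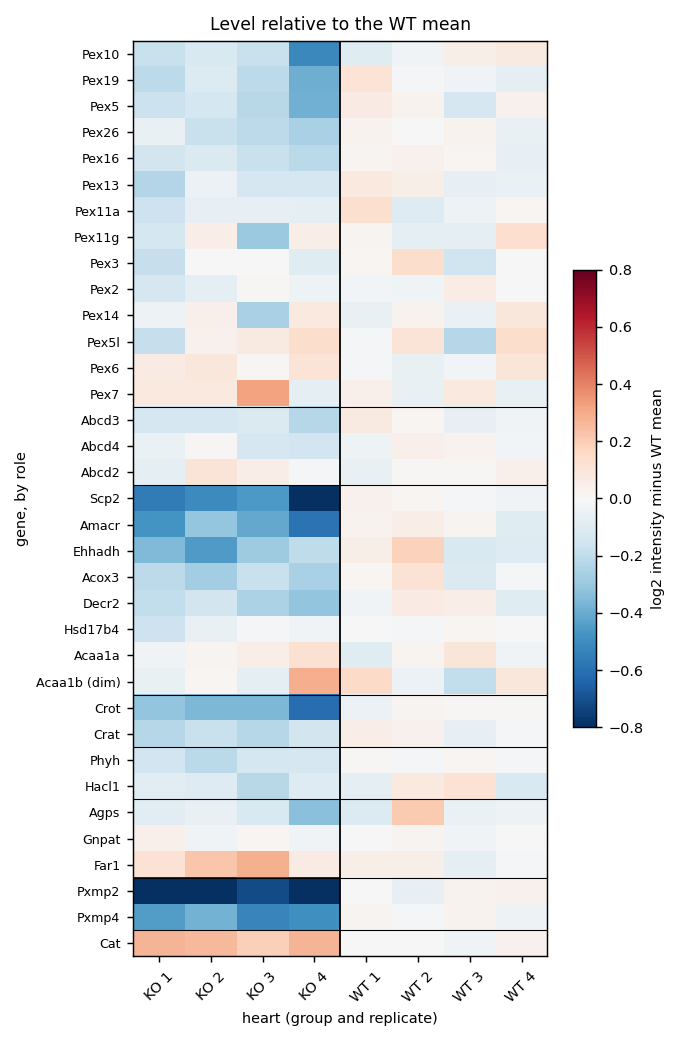
Log2 intensity of each of the 35 peroxisome genes (rows, grouped by role) in each heart (columns, KO 1 to 4 and then WT 1 to 4) minus the gene's WT mean, with blue for lower and red for higher. The blue of Pxmp2, Scp2, Pxmp4, Amacr and Crot runs through all 4 KO columns, and Cat is red in all 4.

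The hearts within a group differed little. Averaged over the 34 genes and set against the WT mean, the level was -0.17, -0.12, -0.14 and -0.20 in KO replicates 1 to 4 and between -0.02 and 0.02 in the WT hearts. KO replicate 4 was the lowest KO heart for 14 of the 34 genes and for 8 of the 14 called lower. It was also the lowest KO heart for 37.2% of all genes tested. WT replicate 4 was likewise the lowest WT heart for 8 of the 14, beside 23.8% of all genes tested. Without KO replicate 4, 10 of the 14 genes were called lower, and Pex5, Pex16, Pex19 and Pex26 were not. Without WT replicate 1 there were 9, with Phyh lost as well. Acox3, Amacr, Crot, Decr2, Ehhadh, Pxmp2, Pxmp4 and Scp2 were called lower under all 17 alternatives, 8 of the 14. Calls over all genes were fewer too when an array was left out, 1658 to 1914 lower against 2071 with all arrays.

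A further list of 63 genes linked to peroxisomes was read from the same fit. Many of their products are also or mainly placed in mitochondria (Idh2 and Decr1 among them) or the cytosol. Of the 63 genes, 46 were tested, 17 fell (37.0%) and 1 rose, beside 13.9% and 10.8% of all genes, with a median difference of -0.13. Ddo, the oxidase of aspartate in its D form, read 7.72, 7.75, 7.73 and 7.72 in KO hearts, against 8.50, 8.38, 8.21 and 8.27 in WT hearts. Its KO hearts were almost equal, and the difference was -0.61 (SE 0.07, limma adjusted p = 0.000102). Gstk1, a glutathione transferase of peroxisomes and mitochondria, differed by -0.54 (SE 0.06) and Dhrs4, a carbonyl and retinal reductase, by -0.49 (SE 0.05). Fis1, a membrane adaptor in the division of peroxisomes and mitochondria, differed by -0.41, Pecr, a reductase of enoyl-CoA chains, by -0.39, and Mpv17, a relative of Pxmp2 placed mainly in mitochondria, by -0.37. All 6 had KO hearts below WT hearts without overlap, beside 16.8% of all genes tested, and each passed in every alternative run. They were named for the smallest p among the falls of this list, so both traits follow largely from that choice.

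Among the other falls, named after their values were seen, were Dnm1l (-0.30) and Mff (-0.21), the GTPase and the adaptor that constrict both organelles together with Fis1, and the coenzyme A hydrolases Nudt19 (-0.24) and Nudt7 (-0.18). Eci2 (-0.35) and Ech1 (-0.23), isomerases for unsaturated chains, and Idh1 (-0.27), which makes NADPH, fell too. The rest of the falls were Nudt12 (-0.49), Ide (-0.46, with overlapping groups), Atad1 (-0.32) and Hsdl2 (-0.15). Nudt7 and Ide passed narrowly (limma adjusted p = 0.0492 and 0.0466). The calls of the genes named in this paragraph before Xdh were not followed singly over the alternatives. Xdh, the xanthine oxidoreductase, was the gene that rose (0.50, SE 0.16, limma adjusted p = 0.0451). It read 9.65, 9.73, 9.56 and 9.42 in KO hearts, against 8.98, 8.60, 9.47 and 9.30 in WT hearts. The WT hearts were widely spread and overlapped the KO hearts, and the call was lost in several alternatives (adjusted p up to 0.112), for example without WT replicate 2 (0.34, adjusted p = 0.0623).

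**Figure D4:**
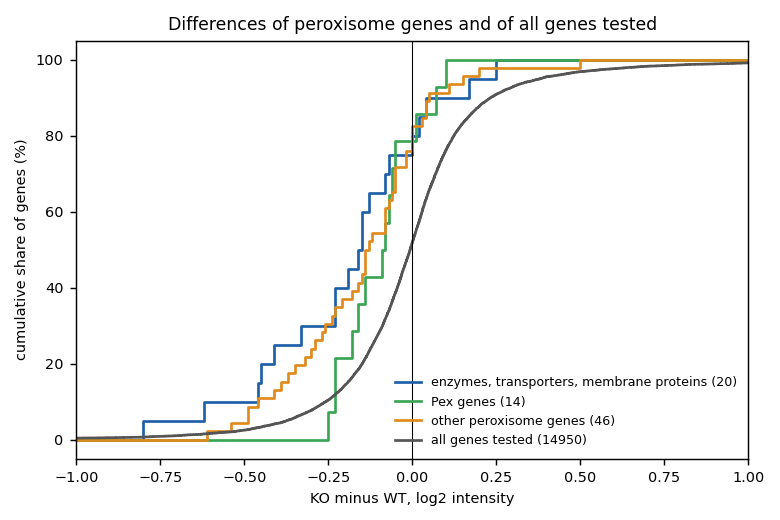
Cumulative share of genes (vertical axis, percent) by the difference between KO and WT hearts on the log2 intensity scale (horizontal axis, cropped at -1 and 1), for 20 enzymes, transporters and membrane proteins, 14 Pex genes, 46 other peroxisome genes and all 14950 genes tested. The peroxisome curves lie left of the curve for all genes through most of their range, with medians of -0.16, -0.09, -0.13 and -0.01 in that order.

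Markers of other cell types were read beside these genes. All 16 measured macrophage markers rose, with a median of 1.30, and their summed intensity was 8267 to 10618 in KO hearts, against 3748 to 4242 in WT hearts. Of 10 cardiomyocyte markers 3 fell, Ryr2 (-0.53), Myl2 (-0.20) and Mybpc3 (-0.15), and 0 rose. The 10 had a median of -0.09 and a sum of 65844 to 67573 in KO hearts, against 66132 to 72014 in WT hearts. WT replicate 4 was low for Nppa (11.25, with 12.37 to 12.56 in the other WT hearts) and for Myl7 (8.72, with 10.15 to 10.95). Both genes enter this sum, and the overlap of the sums rests on that heart. Fibroblast markers rose in 3 of 10 cases (median 0.20, sum 9290 to 10378 in KO hearts against 8763 to 9418 in WT hearts), and 0 of 10 endothelial markers were called by limma (median 0.10). Of smooth muscle and pericyte markers 1 of 8 fell, of skeletal muscle markers 1 of 6, of erythroid markers 1 of 2, and of lymphocyte markers 1 of 5 rose. Of all genes tested, 13.9% were called lower and 10.8% higher, so 1 call in a list this small says little. The smooth muscle and pericyte gene was Abcc9 (-0.89) and the skeletal muscle gene Ckm (-0.25). Ckm was bright in these hearts (11.95 in KO, 12.20 in WT), and the next brightest skeletal muscle marker, Tnnt3, lay at 6.13 in both groups. These single falls do not show fewer cells of those types. The part of these shifts in the lower levels of peroxisome genes was not tested.

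Fat and liver are rich in peroxisomes, so their markers were examined as well. Of 7 adipocyte markers tested 1 rose and 0 fell, beside 10.8% and 13.9% of all genes tested. The gene that rose was Lpl (0.22), which cardiomyocytes also express. The defining gene Adipoq, at 4.46 in KO hearts and 4.66 in WT hearts, was near the filter, and the means of Ucp1 and Lep were under it. For some genes of this list WT replicate 2 was the highest of the 8 hearts. These were Ucp1 at 5.74 (3.81 to 4.14 in the other WT hearts), Adipoq at 5.13, Cidec at 5.97 and Plin1 at 5.92. The same heart was the lowest of the 8 for Lep (4.03) and Ppargc1a (10.67), and neither for Lpl, Retn, Cidea and Elovl3. Without this heart 10 of the 14 peroxisome genes were called lower. Of 8 hepatocyte markers tested 1 rose, Hp (0.22, limma adjusted p = 0.041, with overlapping groups), and 0 fell. The summed intensity of the list was 367 to 546 in KO hearts against 341 to 381 in WT hearts, and Ttr was under the filter. Alb, the albumin gene, read 6.02, 6.53, 4.98 and 4.77 in KO hearts, against 4.60, 4.55, 4.76 and 4.54 in WT hearts (limma adjusted p = 0.058). KO replicates 1 and 2 stood above the rest, as they did for Ahsg (7.07 and 7.31, against 6.52 and 6.37 in the other KO hearts). The other hepatocyte markers did not share this pattern. Fgb was lowest of the 8 hearts in KO replicate 1 (4.69), Hp was highest in KO replicate 4 (5.23) and Cyp2e1 in WT replicate 2 (6.29).

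Promoter sequences were found for 26 of the 35 genes, 30 promoters of 300 bases in all, and 13 of these belonged to 10 of the 14 genes called lower. The search covered 7 motifs on both strands. The full PPAR element AGGTCANAGGTCA was in 0 of the 30, beside 0.0402% of the promoters of all genes tested. Its core AGGTCA was in 4 of 30 (13.3%), those of Scp2, Phyh, Cat and Pex11g, and in 13.3% of the promoters of all genes tested. TGACNNNGC was also in 4 of 30, those of Scp2, Ehhadh, Pex7 and Pex11g, beside 13.9%. CCAAT was in 13 of 30 (43.3%), beside 36.5%, and TNAAGGTCA, the element of estrogen-related receptors, which contains the core site, was in 0, beside 0.818%. The NRF1 element was in 3 of 30, those of Abcd3, Pex10 and Pex11g, beside 8.33%, and the E-box CACGTG in 1 of 30 (3.33%), that of Gnpat, beside 9.29%, and neither was in the 13 promoters of genes called lower. TGACNNNGC can overlap the reverse complement of AGGTCA. These are matches of letters in a short window. They neither show nor exclude binding, and elements farther away were not searched.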

How the data were processed

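Total RNA of whole hearts frozen at collection was extracted with Trizol and hybridised to 1 array per mouse, per the labels' protocols. The authors deposited intensities on a linear scale (3.57 to 16629), 27541 transcript clusters by 8 arrays. Partek and RMA are named in the submitters' processing notes without order or version, and no genome build is named in the sources used. Scanner files, detection calls and scan batches were not used here. The number of arrays limits the precision. A single symbol was paired with 21631 clusters (several with 1317, none with 4593), and each gene was represented by its brightest cluster. A filter at the 25th percentile of the genes' mean log2 level (4.50) left 14950 genes. Log2 values were fitted with limma 3.58.1 in R 4.3.3 (lmFit, eBayes, two-sided, 6 residual degrees of freedom, no covariate), adjusted by Benjamini-Hochberg over all genes at 0.05. Same-numbered hearts did not deviate together (correlations -0.04 to 0.08), so the numbers were not treated as pairs. Figures used matplotlib 3.10.9. The members, lists and tests were chosen with earlier results of these data known. Text names every member, Hdac3 and the 6 smallest p per direction of the further peroxisome list. The plan was up to 3 bright markers a list, but more were named in some lists, and dim ones too. These and other names were chosen after values were seen.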

Additional observations from a re-analysis of the deposited data

Results flagged for a closer look

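Among 43 genes in 2 groups of 4 hearts each, 9 of 86 sets held a heart far from the other 3 by Dixon's ratio at its 95% critical value, where chance gives about 1 in 20. KO replicate 4 was low for Pex10 (7.74, the others 8.08 to 8.13), Crot (7.97, the others 8.22 to 8.26) and Hdac3 (8.50, the others 8.59). KO replicate 1 was low for Pex11a (8.09, the others 8.18 to 8.19) and high for Mpv17 (9.60, the others 9.55 to 9.56), and KO replicate 3 was low for Hacl1 (6.61, the others 6.73 to 6.74). WT replicate 4 was low for Pex16 (8.41, the others 8.49 to 8.51) and Amacr (8.24, the others 8.36 to 8.39), and WT replicate 3 for Dhrs4 (8.75, the others 8.87). Without WT replicate 4 the calls of Pex16 and Amacr held.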

How the results depend on the processing

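Of 17 alternatives, 8 of the 14 falls (listed above), the rise of Cat and the fall of Hdac3 passed in all. The count of peroxisome genes called lower, 14, was 12 to 15 in alternatives that kept all arrays and 9 (without WT replicate 1) to 13 (without WT replicate 4) with an array left out. Of the 712 values of single genes over alternatives, 638 kept direction and side of the threshold, 43 lost and 15 gained a call, and 16 changed sign. The count called higher, 1, was 2 with quantile normalisation, the stricter dim filter (50th percentile), an offset of 16 before the log, an intensity trend with robust variances, and array weights, and 1 to 2 with an array left out. Each time Far1 was the gene added. In the further list the count called higher, 1, was 2 with quantile normalisation, the stricter filter, the offset and array weights, 0 with no dim filter and with the replicate block, and 0 to 1 with an array left out. The replicate block gave 12 peroxisome genes called lower (Pex26 and Phyh lost), and the numbers only name the hearts. Signs changed only for differences near 0: Pex5l was -0.01 with quantile normalisation and with centred medians, -0.04 with array weights and -0.06 to 0.08 with an array left out. Abcd2 was -0.0047 with centred medians, -0.01 with weights and -0.01 to 0.05 with an array left out. Gnpat was -0.0036 with quantile normalisation, -0.02 with centred medians and -0.01 to 0.01 with an array left out, and Pex14 was -0.09 to 0.02. Apart from fewer arrays or another set of genes tested, the cause of these changes was not tested. Without detection calls, how far background limits dim genes such as Pex5l is not known.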
